A study of Mus musculus with 2 samples.

Results

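Myoblasts in G2 and mitosis were taken from 2 single-cell RNA libraries of mouse muscle stem cells as the cells whose RNA was richest in 7 genes of the end of the cell cycle. A barcode was kept if it held 1000 UMIs or more (unique molecular identifiers, 1 per captured transcript) and 500 genes or more, with mitochondrial UMIs at 10% or less. Cells with a summed Lyz2, C1qa, C1qb and Tyrobp level of 10 or more per 10000 UMIs (macrophages), or a summed Rgs5, Myh11 and Kcnj8 level of 5 or more (mural cells of vessels), were set aside. Of the 3043 cells left, 227 carried at least 8 UMIs of Ccnb1, Ccnb2, Cdc20, Plk1, Ube2c, Hmmr and Aurka together per 10000 of their own UMIs, the G2/M score. The GFP+ library contributed 25 of its 529 cells to these G2/M cells, and the GFP- library 202 of its 2514. The remaining 504 and 2312 cells are called other cells below, and the level of the 7 genes itself is a selection, not a result.

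Satellite cells, the stem cells that repair skeletal muscle, differ in whether they make the transcription factor PAX3. Both libraries were of satellite cells from Pax3GFP/+ mice, which carry GFP at the Pax3 locus, taken 5 days after injury from biceps and recto femoris. Flow cytometry split them into PAX3+ (GFP+) and PAX3- (GFP-) fractions, and 20000 cells of each were loaded on a droplet device with 3′ chemistry. The sample labels also give the genotype as wild-type, and the number and age of the animals, the agent of injury and any pooling are not stated in the labels. With 1 library per fraction there are no replicates, so no test between the fractions was possible and fraction and library cannot be told apart. Intervals in parentheses are at the 95% level and reflect counting error alone.

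A cell that has copied its DNA passes through G2 and enters mitosis when cyclin B and its kinase CDK1 become active. The Aurora and Polo-like kinases, kinesins and microtubule-bundling proteins then build the spindle, and the kinetochore joins chromosomes to it. The anaphase-promoting complex, with CDC20 and UBE2C, destroys cyclin B and securin to end mitosis. In regenerating muscle, satellite cells leave quiescence, divide as myoblasts that express Myf5 and Myod1, and leave the cycle again as Myog and the CDK inhibitors Cdkn1a and Cdkn1c come on.

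G2/M cells were deeper than the rest. Their median depth was 29981 UMIs and 5322 genes in the GFP+ library and 24444 UMIs and 4841 genes in the GFP- library, against 18892 and 14636 UMIs in other cells and 13545 and 8086 in macrophages. Mitochondrial UMIs were a median of 2.32% and 3.70% of the G2/M cells' total, against 2.61% and 4.58% in other cells. Summed over G2/M cells, the libraries held 779094 and 5413473 UMIs, of which 1449 and 10229 were of the 7 genes. The libraries shared 2 cell barcodes, 0 of them among G2/M cells. A doublet caller marked 3 of 604 GFP+ and 3 of 2683 GFP- cells, so doublets were in effect not removed. It marked 1 G2/M cell, the GFP+ cell with the most UMIs.

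The label was checked against markers of muscle and of other cell types. Of the G2/M cells, 22 of 25 GFP+ and 190 of 202 GFP- cells had at least 10 UMIs of 12 myogenic identity genes. Those 12 genes made up 0.344% of the UMIs of GFP+ and 0.258% of those of GFP- G2/M cells. However, 1 GFP+ and 4 GFP- G2/M cells had more UMIs of other types' markers than of myogenic ones, a check added after the data were seen. The GFP+ cell held 480 UMIs of Cd74, 279 of H2-Aa, 316 of H2-Ab1 and 368 of H2-Eb1, genes of antigen presentation, against 1 UMI of Lyz2 and 1 of the myogenic markers. Among the GFP- cells, 1 held 53 UMIs of Cdh5, 26 of Pecam1 and 617 of Fabp4, genes of endothelium, with 0 myogenic UMIs. Another held 16 fibro-adipogenic UMIs against 1 myogenic, and a cell of 1428 UMIs held 3 UMIs of other types against 1. Leaving out these 5 cells and the 38 such cells among the others left 24 of 521 and 198 of 2479 cells in G2/M. The share of G2/M cells, the marker lists named in the next paragraph and the counts of called genes are given with and without them.

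The rule itself removed cells rich in Lyz2, C1qa, C1qb, Tyrobp, Rgs5, Myh11 or Kcnj8, so low levels of the macrophage and mural lists, which hold these genes, are in part fixed by it, and the values without the 5 cells are low by that choice too. The 12 macrophage markers stood at 6.78 and 0.0868 per 10000 UMIs in G2/M cells, and at 0.186 and 0.0859 without those cells. Of 9 endothelial markers, 4 were detected in GFP+ and 9 in GFP- G2/M cells, with 7 and 210 UMIs, and 3 and 5 without those cells, with 6 and 44 UMIs. Of 9 mural markers, 5 and 8 were detected, at 17.6 and 11.9 per 10000, and 5 and 7 without those cells, at 18.2 and 12. Nearly all of the mural UMIs were of Acta2 (1642 and 1085 CPM) and Notch3, which myogenic cells are also known to express. Fibro-adipogenic markers gave 32 and 278 UMIs in G2/M cells, and 31 and 152 without those cells. Lymphocyte and red cell markers gave 0 and 5 UMIs with and without those cells.

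G2/M cells were a smaller share of the GFP+ than of the GFP- library. G2/M cells made up 4.73% of GFP+ cells (interval 3.08 to 6.90) and 8.04% of GFP- cells (7.0 to 9.17), a ratio of 0.588 (0.372 to 0.894). Without the cells of other types the shares were 4.61% and 7.99% and the ratio 0.577 (0.361 to 0.883). Cells in S phase outside G2/M, defined by at least 10 UMIs per 10000 of 15 replication genes such as Mcm5, Rrm2 and Tyms, were 31 cells (5.86%, 4.02 to 8.22) and 200 cells (7.96%, 6.93 to 9.08). Among cells in either class, G2/M cells were 44.6% (31.3 to 58.5) in the GFP+ and 50.2% (45.2 to 55.2) in the GFP- library, intervals that overlap. Cells with 0 UMIs of the 7 genes were 76.8% and 66.1% of the libraries. GFP+ cells were the deeper ones, and with every cell of at least 5000 UMIs thinned to 5000 before scoring the shares were 6.17% and 9.21% and their ratio 0.67.

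**Figure D1:**
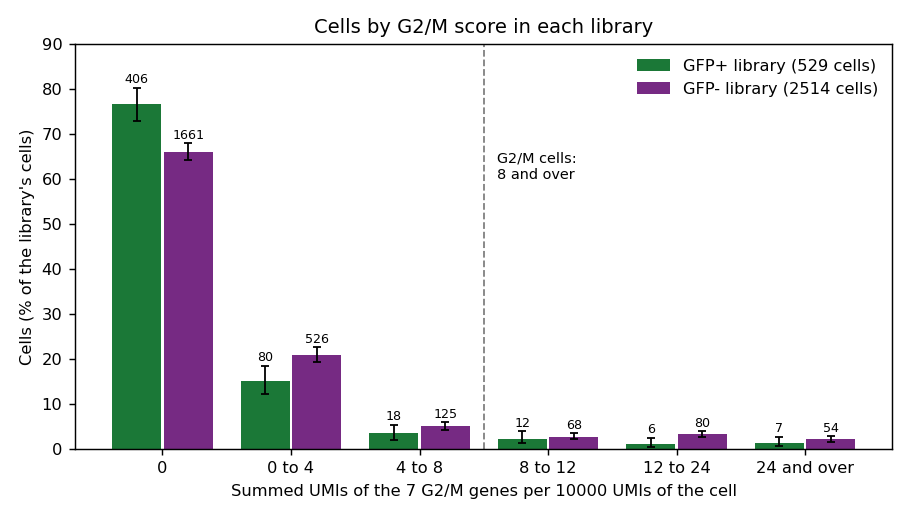
Percent of each library's cells (vertical axis) by G2/M score, the UMIs of the 7 genes per 10000 UMIs of the cell (horizontal axis); bars are the GFP+ library (529 cells, green) and the GFP- library (2514 cells, purple), lines are exact binomial 95% intervals, and numbers are cells. The dashed line at 8 sets apart the G2/M cells, which lie in bands of 12, 6 and 7 GFP+ cells and 68, 80 and 54 GFP- cells.

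The score forms a range with no gap at the limit. Cells just outside it, at 6 to under 8, numbered 7 in the GFP+ and 52 in the GFP- library, and those just inside, at 8 to under 10, numbered 6 and 39. G2/M scores had medians of 12.9 and 15.6 and reached 45.3 and 72.0. Few UMIs carried the class in shallow cells: 4 GFP+ and 5 GFP- G2/M cells had at most 3 UMIs of the 7 genes, and 4 and 8 had fewer than 5000 UMIs in all.

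The 7 genes of the rule are given as a description. Ube2c, the ubiquitin-conjugating enzyme of the anaphase-promoting complex, was the most abundant, at 812.5 CPM (a gene's UMIs scaled by the summed UMIs of the class) in GFP+ and 783 in GFP- G2/M cells, against 21.8 and 28.5 in other cells. Cyclin B1 (Ccnb1) stood at 203 and 246 CPM, cyclin B2 (Ccnb2) at 266 and 263, and Cdc20 at 204 and 228. Hmmr, a spindle-binding protein, stood at 204 and 196 CPM, and the kinases Plk1 and Aurka at 110.4 and 114 and at 60.3 and 59.9. Ratios of GFP+ to GFP- lay between 0.824 for Ccnb1 and 1.04 for Hmmr, and since the same limit on these genes chose the cells in both libraries, nothing is read from them.

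Genes of this phase are known to share CCAAT boxes and a motif called CHR in their promoters, bound by NF-Y and by the DREAM and MuvB complexes. Promoters of the 4 genes that mark the class are printed to show these letters, both kinds in Cdc20 and Ube2c and CCAAT alone in Ccnb1 and Plk1, as the 200 bases before the gene start from RefSeq on GRCm38.p6, 5′ to 3′ on the gene's strand. Capitals mark CCAAT or its complement ATTGG, and TTTGAA or its complement TTCAAA.
Ccnb1, chr13:100786487-100786686, minus strand: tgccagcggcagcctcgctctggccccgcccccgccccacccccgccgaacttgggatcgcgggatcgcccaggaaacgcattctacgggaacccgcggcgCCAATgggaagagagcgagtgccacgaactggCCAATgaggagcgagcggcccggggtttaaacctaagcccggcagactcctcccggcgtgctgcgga
Cdc20, chr4:118437344-118437543, minus strand: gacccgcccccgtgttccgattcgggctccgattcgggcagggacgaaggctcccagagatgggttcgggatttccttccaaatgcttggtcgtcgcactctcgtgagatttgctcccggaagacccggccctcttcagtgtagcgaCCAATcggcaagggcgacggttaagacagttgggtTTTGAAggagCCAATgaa
Plk1, chr7:122159235-122159434, plus strand: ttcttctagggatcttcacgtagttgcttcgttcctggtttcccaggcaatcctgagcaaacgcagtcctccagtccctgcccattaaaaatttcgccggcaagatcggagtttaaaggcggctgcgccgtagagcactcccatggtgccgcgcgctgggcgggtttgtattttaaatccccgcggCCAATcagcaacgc
Ube2c, chr2:164769729-164769928, plus strand: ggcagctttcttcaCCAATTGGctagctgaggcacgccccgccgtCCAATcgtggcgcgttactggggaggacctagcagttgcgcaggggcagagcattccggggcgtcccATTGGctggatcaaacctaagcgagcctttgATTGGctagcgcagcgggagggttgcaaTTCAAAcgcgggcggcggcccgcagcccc
In Ube2c the CCAAT that starts 186 bases before the gene and the ATTGG that starts 183 bases before it overlap and were both counted.

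All 7 rule genes held a CCAAT box on either strand in such a window, 6 held at least 2, and 3 held TTTGAA or TTCAAA. Of the 32851 windows of all genes, 29.4% held CCAAT or ATTGG, 7.98% held at least 2 of them and 12.5% held TTTGAA or TTCAAA. Among genes at least 2-fold higher in G2/M cells in both libraries, without the 7, 209 matched a promoter entry with 248 windows. Of these windows 53.2% held CCAAT or ATTGG, 28.2% at least 2, and 25.8% the TTTGAA letters. In the windows of all genes tested in that comparison the shares were 31.9%, 11.5% and 8.03%. Windows of the genes lower in G2/M cells held them in 21.4%, 4.49% and 12.4%. These are matches of letters and describe the sequences only.

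Summed UMIs of G2/M cells were next set against those of other cells of the same library. A gene was called where it differed at least 2-fold the same way in both libraries and reached 20 CPM in either class in both. Of 5692 genes at that floor, 268 (4.71%) were higher and 81 (1.42%) lower in G2/M cells, and the median gene's log2 ratio was -0.01 in the GFP+ and 0.03 in the GFP- library. The contrast is the one that chose the cells, and a gene could reach the floor through G2/M cells alone, so the counts describe the class and support nothing. Of the 268 higher genes, 150 were in the 9 cell cycle lists used here, and 0 of the 81 lower genes were. Without cells of other types 266 genes were higher and 83 lower, with 263 and 78 shared.

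**Figure D2:**
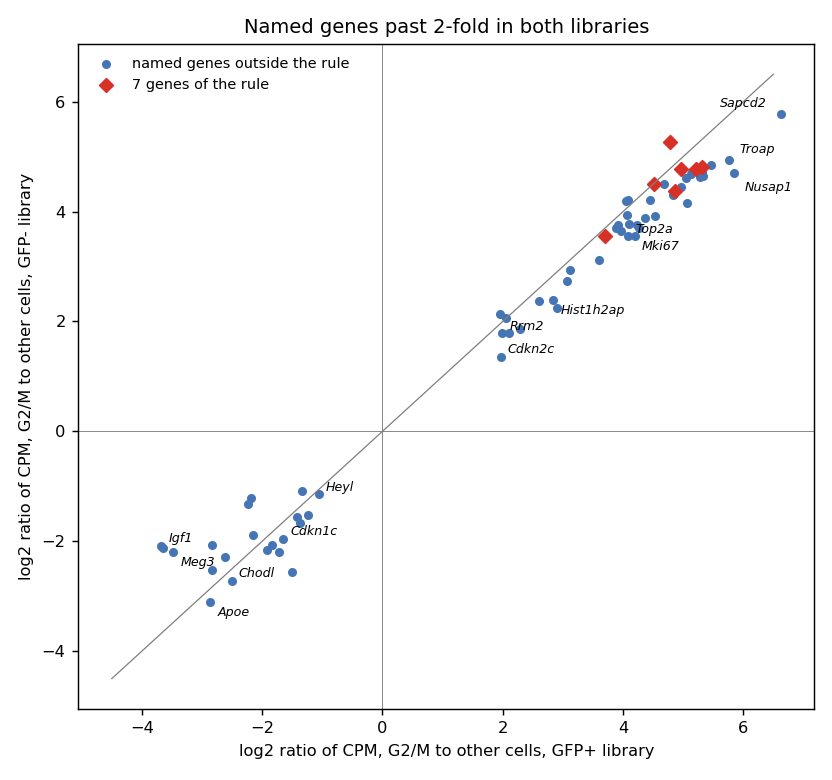
Log2 ratio of CPM in G2/M cells to other cells in the GFP+ library (horizontal axis) and in the GFP- library (vertical axis) for the named genes called in both; diamonds are the 7 genes of the rule, circles other genes, and the diagonal marks equal ratios. Sapcd2 lies farthest up and to the right, and Apoe, Igf1 and Meg3 lie at the lower left.

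Of the 28 mitotic kinases, cyclins and checkpoint genes, 21 reached the floor, 19 were higher and 0 lower, with median log2 ratios of 3.56 and 3.33. Ccna2 (cyclin A2, ENSMUSG00000027715, chr3:36564865-36572150, mm10) stood at 241 CPM in GFP+ and 225 CPM in GFP- G2/M cells, against 11.7 and 15.2 CPM in other cells, ratios of 20.7 (16.3 to 26.3) and 14.8 (13.4 to 16.4). Cdk1, its partner kinase, stood at 442 and 457 CPM against 33.1 and 40.9. Nek2, a kinase that splits the centrosomes, stood at 47.5 and 48.4 CPM against 1.2 and 1.83. Cdc25c, the phosphatase that activates CDK1, stood at 32.1 and 27.3 CPM against 1.89 and 1.48. In each of these genes the 2 libraries' G2/M cells lay far closer to each other than to other cells. The same score limit chose the cells in both libraries, so this closeness is in part fixed by that choice.

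Kinetochore and chromosomal passenger genes numbered 29 higher of 30 tested of 36, with median log2 ratios of 3.42 and 2.92. Cenpf (ENSMUSG00000026605, chr1:189640606-189688086, mm10), a large protein of the outer kinetochore, stood at 459.5 CPM in GFP+ and 437 in GFP- G2/M cells, from 22 of 25 and 184 of 202 cells, against 10.4 and 15.2 CPM in other cells. The kinetochore motor Cenpe stood at 185 and 253 CPM against 5.28 and 9.81. Cdca8 (borealin, of the chromosomal passenger complex) stood at 199 and 237 CPM against 11.9 and 15.4. As a list, these genes took 0.405% and 0.396% of UMIs in G2/M cells against 0.0375% and 0.0459% in other cells, ratios of 10.8 and 8.62, the highest of the 9 cell cycle lists after the rule genes.

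Spindle genes and kinesins gave 29 higher of 32 tested of 36 in the files, with median log2 ratios of 3.69 and 3.42. Nusap1, which bundles spindle microtubules, stood at 280 CPM in GFP+ and 178 in GFP- G2/M cells against 4.88 and 6.84 in other cells. Tpx2, an activator of Aurora A, stood at 226 and 244 CPM against 9.87 and 14.7. The kinesin Kif2c stood at 42.4 and 56.5 CPM against 1.2 and 2.16. The beta-tubulin Tubb5 was also abundant outside G2/M, at 2389 and 1917 CPM against 703 and 765. Of 16 cytokinesis genes, 12 of 15 tested were higher. Kif23, a motor of the central spindle, stood at 121 and 123 CPM against 3.89 and 5.63. Cep55, of the midbody, stood at 79.6 and 53.9 CPM against 2.39 and 3.05.

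Condensin and mitotic chromatin genes were higher for 23 of 25 tested, with median log2 ratios of 1.81 and 1.86. Top2a (topoisomerase II alpha, ENSMUSG00000020914, chr11:98992943-99024189, mm10) stood at 774 CPM in GFP+ and 681 in GFP- G2/M cells against 45.8 and 58.1 in other cells. Mki67, the coat protein of mitotic chromosomes and a common proliferation marker, stood at 332 and 392 CPM against 18.1 and 33.4. Hmgb2, a chromatin protein, was the most abundant of those named, at 1479 and 1299 CPM against 169.5 and 169. Genes of the anaphase-promoting complex and of sister chromatid separation were mixed, with 10 of 25 tested higher and median log2 ratios of 0.79 and 0.65. Their higher members included Espl1 (separase), at 28.2 and 24.4 CPM against 1.5 and 1.80, and the cohesin protectors Sgo1 and Sgo2a.

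Sapcd2 had the highest ratios among named genes called in both libraries, at 29.5 CPM in GFP+ and 27.9 in GFP- G2/M cells against 0.299 and 0.512 in other cells, ratios of 98.7 (29.8 to 514) and 54.5 (33.7 to 93.0). Its G2/M level came from 23 UMIs in 11 GFP+ cells and 151 UMIs in 87 GFP- cells. Troap, a spindle-associated protein, stood at 27.0 and 22.4 CPM against 0.498 and 0.728. Gas2l3, a protein that links actin and microtubules, stood at 38.5 and 38.4 CPM against 0.997 and 1.56.

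**Figure D3:**
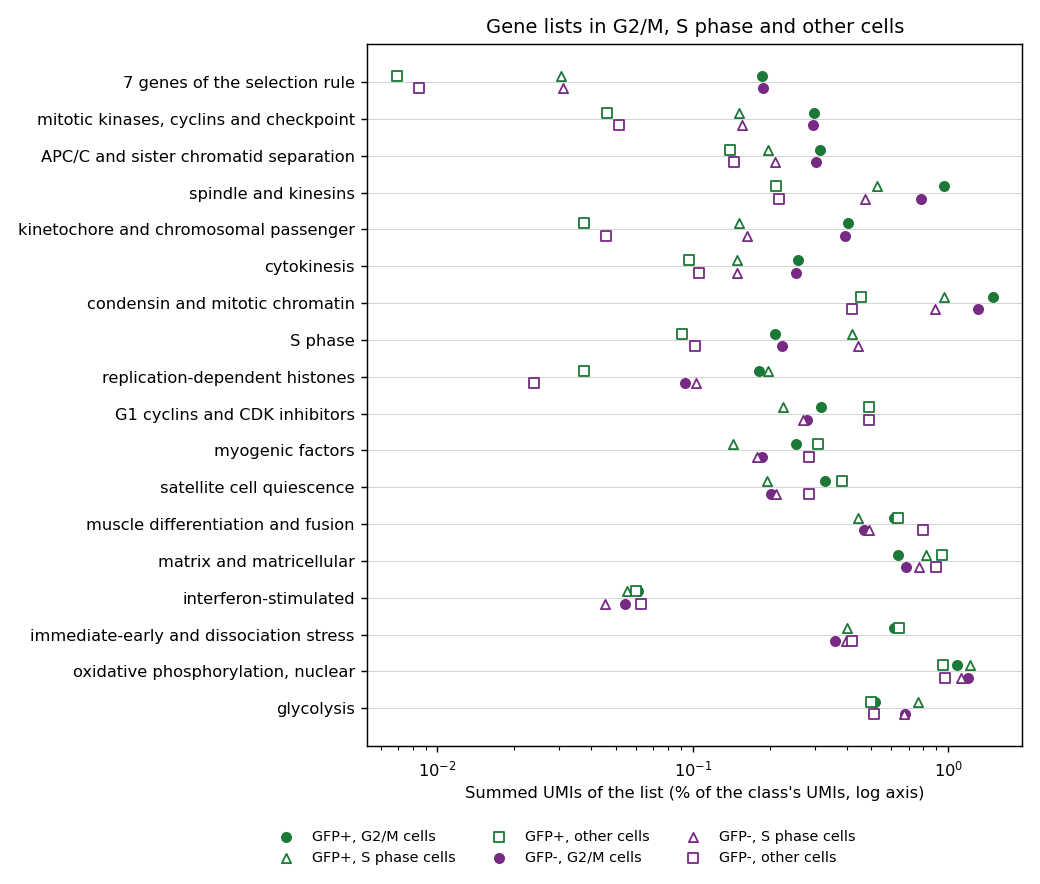
Summed UMIs of each gene list as percent of the class's UMIs (horizontal log axis) in G2/M (filled circles), S phase (triangles) and all other cells (squares, S phase included) of the GFP+ (green) and GFP- (purple) libraries. Cell cycle lists lie to the right in G2/M cells, such as kinetochore genes at 0.405% and 0.396%, while G1 cyclins and CDK inhibitors lie to the left, at 0.317% and 0.280% against 0.491% and 0.488%. That last list holds the abundant Cdkn1c, at 653 and 646 CPM against 2057 and 2509. Its median log2 ratios were only -0.13 and 0.04, with 2 of 22 tested genes called higher and 2 lower.

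Genes lower in G2/M cells included 2 of cell cycle arrest, 2 of quiescence and 4 of the extracellular matrix among those in the lists. Cdkn1c (p57, an inhibitor of cyclin-dependent kinases, ENSMUSG00000037664, chr7:143458339-143461050, mm10) stood at 653 CPM in GFP+ and 646 in GFP- G2/M cells against 2057 and 2509 in other cells, ratios of 0.318 (0.290 to 0.347) and 0.257 (0.249 to 0.266). Gadd45a, a stress gene of growth arrest, stood at 175 and 103 CPM against 453 and 331. The other 2 called members of that list were higher: Cdkn2c (p18), at 133 and 87.4 CPM against 34.2 and 34.2, and Cdkn3, a phosphatase of the CDKs, at 82.2 and 72.6 against 5.58 and 5.55. Over the 22 tested genes of that list the median log2 ratios were -0.13 and 0.04. Cdkn1a (p21) was not called, at 319.6 and 206 CPM against 299 and 259.

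Chodl and Heyl were the called genes of the quiescence list, 2 of 20 tested, with list medians of -0.31 and -0.50 on the log2 scale. Chodl, a membrane lectin of quiescent satellite cells, stood at 33.4 and 15.7 CPM in G2/M cells against 190.0 and 104 in other cells. Heyl, a target of Notch, stood at 73.2 and 65.8 CPM against 152 and 146. In matrix genes 4 of 25 tested were lower, the basement membrane collagens Col4a1 and Col4a2, the laminin Lama2 and the protease Mmp2. Col4a1 stood at 93.7 and 67.6 CPM against 252 and 199, and 98 of its 366 GFP- UMIs came from 1 cell. Apoe, a lipoprotein that was also high in empty droplets of both libraries (3971 and 936 CPM), stood at 42.4 and 21.8 CPM in G2/M cells against 308 and 188 in other cells. Igf1 (3.85 and 8.87 CPM against 49.3 and 37.7) and the noncoding RNA Meg3 (18.0 and 22.7 against 200.4 and 104) were lower too, on 3 and 14 UMIs in GFP+ G2/M cells.

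Cells in S phase were used to describe how G2/M cells differ from other cycling cells. All S phase cells lay under the score limit of 8, so higher mitotic genes in G2/M are in part fixed by that choice. Of 5563 genes tested, 100 (1.8%) were at least 2-fold higher and 36 (0.647%) lower in G2/M than in S phase cells in both libraries. The higher genes included all 7 of the rule, and the values below describe the classes only. Sapcd2 was 18.7-fold and 11.0-fold higher, Gas2l3 8.13-fold and 10.7-fold, and Arl6ip1, a membrane-shaping protein of the endoplasmic reticulum, 6.06-fold and 5.26-fold, at 598 and 553 CPM against 98.7 and 105. Kinetochore genes as a list were 2.67-fold and 2.43-fold above S phase cells, spindle genes 1.84-fold and 1.66-fold, and mitotic chromatin genes 1.55-fold and 1.47-fold. Top2a differed less than Cenpf: it was 2.54-fold and 1.88-fold higher than in S phase cells, and Cenpf 7.37-fold and 5.95-fold.

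Replication genes chose the S phase cells, so their lower level in G2/M is a description. The S phase list took 0.210% of GFP+ and 0.223% of GFP- G2/M UMIs, 0.501 and 0.502 times the share in S phase cells, yet 2.31 and 2.19 times that in other cells. Among its genes outside the 15 that chose the cells, Ung, a repair glycosylase, stood at 1.28 CPM from 1 UMI and 1.85 CPM from 10 UMIs in G2/M cells, against 49.0 and 32.4 CPM in S phase cells. Ccne2 (cyclin E2) stood at 20.5 and 7.94 CPM against 103 and 39.4, and E2f1 at 15.4 and 12.4 against 74.2 and 56.0. Replication-dependent histones behaved otherwise, since their summed share in G2/M cells was 0.922 (0.863 to 0.984) and 0.911 (0.876 to 0.948) times that in S phase cells. Histone genes are near-identical copies, so reads can be split or lost between them, and most of their RNA has no poly(A) tail, which 3′ libraries capture by. Each histone value is therefore uncertain.

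The classes overlapped: 7 of 25 GFP+ (28%, 12.1 to 49.4) and 62 of 202 GFP- G2/M cells (30.7%, 24.4 to 37.5) also passed the S phase limit. Hist1h2ap (ENSMUSG00000094777, chr13:21833026-21833507, mm10) stood at 1533 CPM in GFP+ and 329 CPM in GFP- G2/M cells past the S phase limit, against 369 and 82.5 in those under it. Hist1h1b, a linker histone, stood at 534 and 408 CPM against 108 and 100.1. Cenpf went the other way, at 208 and 318 CPM past the limit and 559 and 507 under it, and Cenpa, the centromeric histone variant, at 140 and 332 against 557 and 571. Ccna2 differed little, at 231 and 244 CPM past the limit and 246 and 214 under it.

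Genes outside the rule went up or down along the score, described for the GFP- library, whose bands of 8 to 12, 12 to 24 and 24 and over held 68, 80 and 54 cells. Cenpf went from 159 to 417 to 779 CPM over these bands, Cenpa from 338 to 478 to 652, Arl6ip1 from 263 to 507 to 946, Nusap1 from 77.3 to 178 to 291 and Top2a from 452 to 673 to 949. Ccna2 went from 159 to 234 to 288 CPM, and its counting intervals in the last pair of bands (214 to 256 and 261 to 316) did not overlap. Histones went down: Hist1h1b was at 285, 259 and 70.2 CPM, and Hist1h2ap at 237, 199 and 65.7. The replication factor Mcm5 stood at 47.9, 45.3 and 25.4 CPM. Cells past the S phase limit were 39.7%, 36.2% and 11.1% of the bands. In the GFP+ library, with 12, 6 and 7 cells, Cenpf stood at 190.4, 345 and 954 CPM and Hist1h1b at 381, 99.3 and 87.4. The score is made of mitotic genes, so genes that share their timing are bound to follow it in part.

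**Figure D4:**
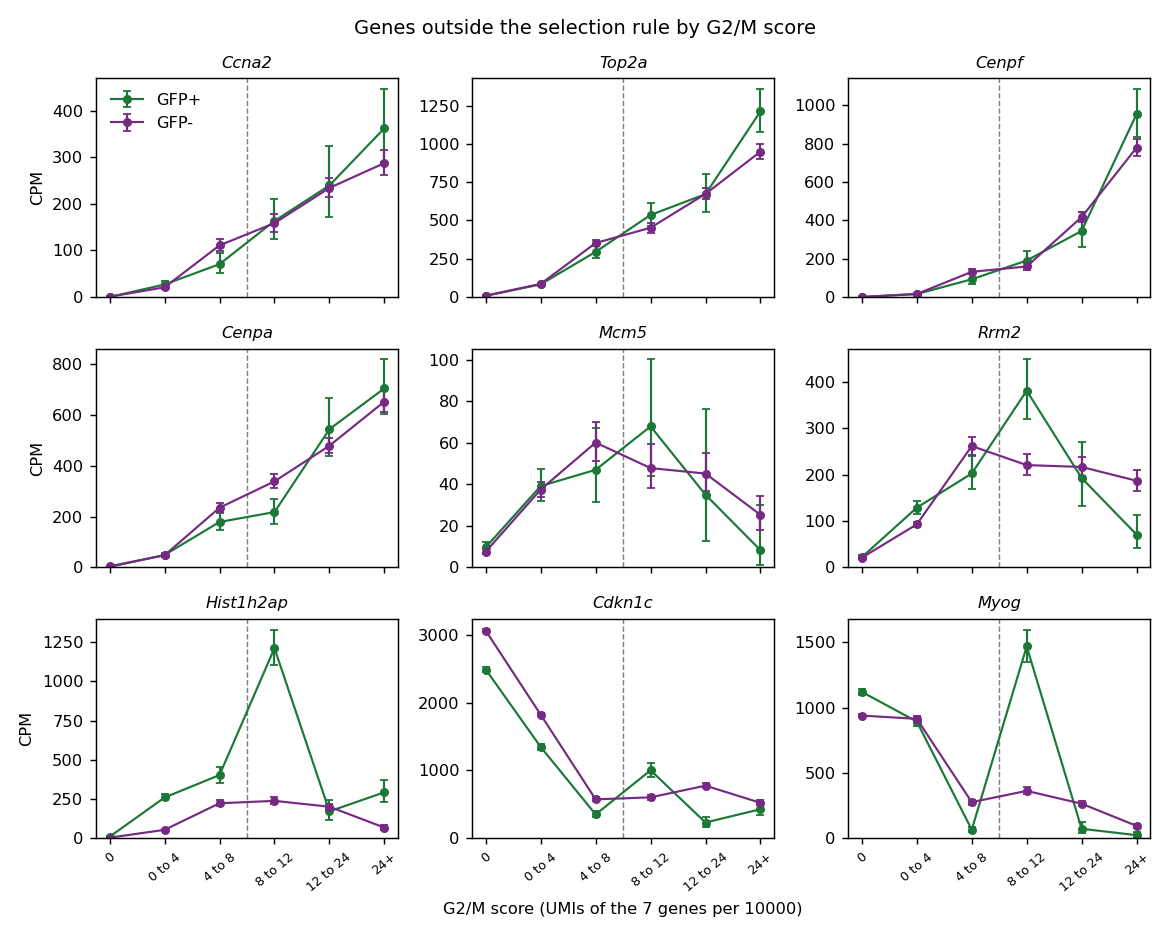
CPM of 9 genes outside the rule (vertical axes, linear) by band of G2/M score (horizontal axes) in the GFP+ (green) and GFP- (purple) libraries; points are summed UMIs as CPM, bars exact Poisson 95% intervals, and the dashed line the limit of 8. Cenpf reaches 954 and 779 CPM in the highest band, Hist1h2ap peaks at 1213 CPM in the GFP+ band of 8 to 12, and Cdkn1c is highest, at 2493 and 3068 CPM, in cells with 0 UMIs of the 7 genes.

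Cdkn1c was highest in cells with a score of 0. It stood at 3068 CPM in GFP- cells with 0 UMIs of the 7 genes, 1824 at scores up to 4 and 571 at 4 to 8, and at 600.2, 774 and 519 in the bands of G2/M cells. In the GFP+ library the values were 2493, 1346 and 347 below the limit, and 1001, 228 and 425 above it. Of the 368 UMIs behind the 1001 CPM, 178 were in the cell marked as a doublet and 102 in 1 other cell. Cells just under the limit, at 4 to 8, were thus near all G2/M cells in Cdkn1c in the GFP- library (646 CPM) and lower than them in the GFP+ library (653 CPM). In Ccna2, at 70.6 and 111 CPM, they stood between the G2/M cells and those of lower score.

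Most G2/M cells had UMIs of Mki67 and Ccna2. With each cell of at least 5000 UMIs thinned to 5000, which left out 4 GFP+ and 8 GFP- G2/M cells, Mki67 was detected in 90.5% of 21 and 82.5% of 194 cells, against 37.9% and 45.0% of S phase and 4.68% and 7.59% of other cells. Ccna2 was detected in 76.2% (52.8 to 91.8) and 63.4% (56.2 to 70.2) of G2/M cells, and in 2.45% and 3.68% of other cells. Macrophages, at 4.41% and 6.82% for Ccna2 and 7.35% and 6.82% for Mki67, were at or near the share of other cells. Before thinning, Mki67 was seen in 88.0% and 93.6%, and Ccna2 in 84.0% and 90.6%, of G2/M cells.

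Transcription factors of the myogenic lineage were present in G2/M cells, with 0 of 16 tested called higher or lower than in other cells. Pax7, the defining factor of satellite cells, stood at 122 CPM in GFP+ and 84.4 CPM in GFP- G2/M cells against 212 and 156 in other cells, ratios of 0.576 (0.464 to 0.707) and 0.541 (0.491 to 0.595). Myf5, an early commitment factor, stood at 311 and 132 CPM against 296 and 203. Myod1, the myoblast factor, stood at 205 and 102 CPM against 100.3 and 103, and 72 of its 160 GFP+ UMIs came from 1 cell. Musculin (Msc), a repressor of MyoD activity, stood at 79.6 and 50.1 CPM against 151 and 131. Pax7 and Msc thus lay under the level of other cells in both libraries.

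Detection per cell was compared at equal depth. Pax7 was detected in 42.9% (21.8 to 66.0) of GFP+ and 32.0% (25.5 to 39.0) of GFP- G2/M cells, against 59.5% and 49.1% of other cells and 0 of 68 (which allows a share of cells with a UMI of up to 4.41%) and 2.27% of macrophages. Unthinned, the Pax7 shares of G2/M cells were 64.0% and 64.9%. Myf5 was detected in 66.7% (43.0 to 85.4) and 37.6% (30.8 to 44.9) of G2/M cells, against 62.8% and 53.8% of other cells and 0% and 13.6% (5.17 to 27.4) of macrophages. Myod1 was detected in 28.6% and 29.9% of G2/M and 23.8% and 22.4% of other cells.

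Myog (ENSMUSG00000026459, chr1:134289989-134292548, mm10), the factor of terminal differentiation, was unevenly spread. It stood at 715 CPM in GFP+ and 245 in GFP- G2/M cells against 993 and 880 in other cells, but had a UMI in 9 of 25 and 58 of 202 cells. A level of at least 10 per 10000 UMIs, a limit set with these data in view, was reached by 5 of 25 GFP+ (20.0%, 6.83 to 40.7) and 15 of 202 GFP- G2/M cells (7.43%, 4.22 to 12). In other cells the shares were 11.1% (8.50 to 14.2) and 14.2% (12.8 to 15.7), and in S phase cells 3.23% and 6%. These 5 and 15 cells held 548 of 557 and 1004 of 1329 Myog UMIs. Of the GFP+ cells, 1 with 60145 UMIs and 289 of Myog was the doublet call, and 2 had only 1280 and 3375 UMIs.

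**Figure D5:**
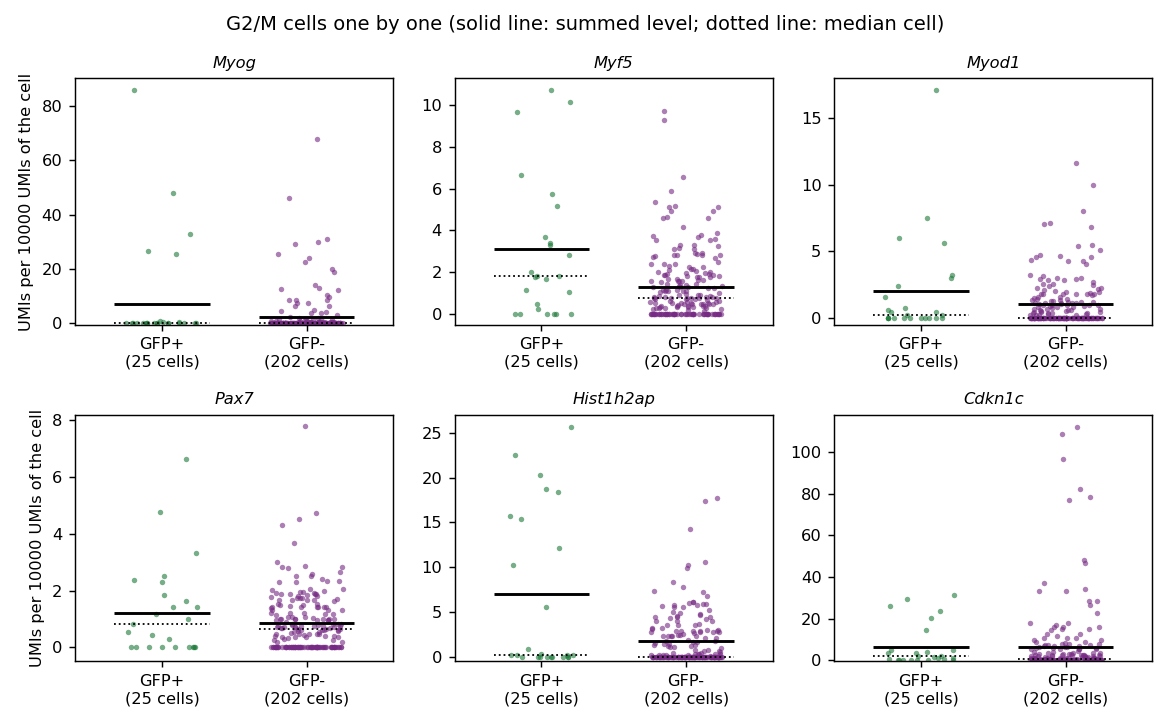
UMIs of 6 genes per 10000 UMIs of the cell (vertical axes, linear) in each G2/M cell, a point per cell spread sideways at random, in the GFP+ (25 cells, green) and GFP- (202 cells, purple) libraries; solid lines are the summed level and dotted lines the median cell. Myog and Hist1h2ap sit near 0 in most cells. In the GFP+ library 5 cells held 548 of 557 Myog UMIs and 10 held 538 of 545 Hist1h2ap UMIs. Hist1h2ap was more spread in the GFP- library, where the 23 cells at 5 per 10000 or over held 435 of 938 UMIs.

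Those high-Myog G2/M cells held RNA of cell cycle and of differentiation genes. The score and the Myog limit chose these cells, so genes that go with either are in part bound to be high in them. The values are thus a description. Their cyclin A2 (Ccna2) stood at 219 CPM in the GFP+ and 236 CPM in the GFP- library, beside 246 and 224 CPM in the remaining G2/M cells, and 0.656 and 7.60 CPM in high-Myog cells outside G2/M. Mki67 and Cenpf were lower than in the remaining G2/M cells. Mki67 stood at 206 and 231 CPM, against 362 and 405 in those and 2.62 and 10.4 outside G2/M. Cenpf stood at 110 and 383 CPM, against 540.0 and 441 and against 1.97 and 9.93. Differentiation genes were higher in them than in the remaining G2/M cells. Myomaker (Mymk), a fusion protein, stood at 542 and 206 CPM, against 9.47 and 17.2 CPM in the remaining G2/M cells and 658 and 572 CPM in high-Myog cells outside G2/M. The cardiac actin Actc1, made early in myotube formation, stood at 1180 and 334 CPM, against 3.16 and 9.39 and against 2181 and 2515. Cdkn1c stood at 2140 and 3665 CPM, against 311 and 400.5 and against 7600 and 7582. In both libraries Mymk, Actc1 and Cdkn1c thus lay between the remaining G2/M cells and the high-Myog cells outside G2/M. Not all such genes did. In the GFP+ library Mymx stood above the high-Myog cells outside G2/M (700 against 496 CPM), as did Acta1 (2648 against 2516) and Myl1 (446 against 341).

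Pax7 was seen in 1 of 5 and 3 of 15 high-Myog G2/M cells and in 15 of 20 and 128 of 187 of the remaining ones. Myod1 was seen in 4 of 5 and 14 of 15, against 10 of 20 and 82 of 187. Median G2/M scores were 10.0 and 12.2, against 14.3 and 16.2, and the highest were 15.6 and 36.6. Since 2 of the 5 GFP+ cells passed the limit with 2 and 3 UMIs of the 7 genes and another was the doublet call, the GFP+ values rest on few cells. The doublet caller marked 0 of the 15 GFP- cells, but it marked few cells at all, and the part of doublets in these levels was not tested.

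The fractions' G2/M cells were compared as summed UMIs of 25 against 202 cells, a comparison of 2 libraries. Among 5928 genes with at least 20 CPM in 1 library, 20 UMIs in all and a level above a floor set by empty droplets, 156 (2.63%) were at least 2-fold higher and 151 (2.55%) at least 2-fold lower in GFP+. The median log2 ratio of these genes was -0.10. A gene could reach the floor through the library where it is high alone. Counts of called genes, in all and by list, therefore describe these 2 libraries only. Among other cells, summed over 504 and 2312 cells, 84 of 5717 genes (1.47%) were higher and 14 (0.245%) lower, and 36 and 2 of these were also called in G2/M cells. Single cells carried much of the G2/M counts: with the cell richest in each gene left out of each library, 75 of the 156 and 143 of the 151 were still called. That step removes 1 of 25 cells on the GFP+ side and 1 of 202 on the other. It thus tends to lower the ratios, and the count of lower genes rose to 321. The lower calls were therefore nearly bound to remain, and nothing is read from their number.

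Pax3 and a reporter feature were higher in GFP+ G2/M cells. Pax3 stood at 15.4 CPM, from 12 UMIs in 8 of 25 cells, against 3.69 CPM from 20 UMIs in 16 of 202 cells, a ratio of 4.17 (1.86 to 8.96), beside 4.21 in other cells. It was under the floor of 20 CPM in both libraries and so was not among the tested genes. The fractions were split by GFP at the Pax3 locus, so its direction describes that split. The feature H2BGFP-2A-TVA-2A-B19G, a reporter transcript added to the reference for which the labels give neither a sequence nor its relation to the Pax3GFP allele, had 51 UMIs in 15 of 25 GFP+ and 0 UMIs in the GFP- G2/M cells. Against a floor of 3 counts over the GFP- cells that is at least 118-fold higher. Six2, a homeobox factor of muscle precursors, stood at 38.5 against 9.98 CPM, 3.86-fold (2.38 to 6.14), beside 2.95-fold in other cells. Pax3 and Six2 were thus higher in GFP+ cells inside and outside G2/M, and the ratios inside were not tested against those outside.

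Summed mitotic lists outside the rule had GFP+ to GFP- ratios from 1.0 to 1.23 in G2/M cells. Mitotic kinases and cyclins had a ratio of 1.0 (0.959 to 1.05), kinetochore genes 1.02 (0.985 to 1.06) and cytokinesis genes 1.02 (0.971 to 1.07). Condensin and mitotic chromatin genes stood at 1.14 (1.12 to 1.17), with 1 of 25 tested called higher, and spindle genes at 1.23 (1.2 to 1.26), with 1 of 35 called higher. The median log2 ratio of spindle genes was 0.11, as it was for cytokinesis genes, and that of kinetochore genes was 0.10. Nusap1, a spindle gene, had a ratio of 1.57 (1.35 to 1.82) in G2/M cells and 0.714 (0.515 to 0.972) in other cells.

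Summed histones had a GFP+ to GFP- ratio of 1.95 (1.84 to 2.07) in G2/M cells, beside 1.58 in other cells. Of 13 tested, 6 were at least 2-fold higher and 1 lower in GFP+, with a median log2 ratio of 0.95. Among the higher ones, Hist1h3e, Hist1h4h and Hist1h3c had 16, 19 and 24 GFP+ UMIs. They reached the floor of 20 CPM through GFP+ cells alone. Hist1h2ap stood at 700 against 173 CPM, 4.04-fold (3.63 to 4.49), and 3.72-fold without its richest cell. Outside G2/M it was 2.98-fold higher, at 98.1 against 33 CPM. Hist1h2ap reached 5 per 10000 UMIs, likewise set with the data in view, in 10 of 25 GFP+ (40%, 21.1 to 61.3) and 23 of 202 GFP- G2/M cells (11.4%, 7.36 to 16.6). Of these, 6 of 10 and 18 of 23 were past the S phase limit. With a score limit of 12 in place of 8 the ratio was 1.68. The linker histone Hist1h1b had a ratio of 1.07, with an interval (0.908 to 1.25) that spans 1.

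Immediate-early genes, many of them transcription factors, are switched on within minutes and also by tissue dissociation. Their list, which also held heat shock and other stress genes, had 8 of 18 tested higher and 0 lower in GFP+ G2/M cells. The list's median log2 ratio was 0.91, and its summed ratio was 1.69 (1.64 to 1.75), beside 1.52 in other cells. The heat shock genes Hspa1a and Hspa1b were among those called, and Hspa1a had 43 of its 67 GFP+ UMIs in 1 cell. Jund, a subunit of AP-1, stood at 1091 against 480 CPM, 2.27-fold (2.10 to 2.46) and 2.25-fold in other cells. Fos stood at 964 against 214 CPM, and 222 of its 751 GFP+ UMIs came from 1 cell. Egr1 stood at 236 against 83.9 CPM, 2.82-fold, and 1.93-fold without its richest cell. The part of dissociation in these levels was not tested.

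Of the myogenic factors 4 of 17 tested were higher and 0 lower, Myf5, Myod1, Myog and Six2, while the list's median log2 ratio was -0.10. Six2 reached the floor of 20 CPM through GFP+ cells alone. Myf5 (ENSMUSG00000000435, chr10:107482908-107486134, mm10) was spread over 19 of 25 and 145 of 202 cells, with a ratio of 2.35 (2.02 to 2.72) and 2.10 without its richest cell, beside 1.46 in other cells. It fell short of 2-fold in 3 alternatives, at 1.92 with a score limit of 6, 1.82 with scores on thinned cells and 1.94 without cells above the 95th percentile of UMIs. Myod1 and Myog rested on single cells. Myod1's ratio of 2.01 was 1.25 (0.985 to 1.57) without its richest cell, and Myog's ratio of 2.91 (2.63 to 3.22), with 289 of 557 UMIs in the doublet call, was 1.84 without the richest cell and 0.216 with a score limit of 12. Pax7 was not called, at 1.44 (1.15 to 1.80) beside 1.36 in other cells.

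Differentiation genes had 7 of 23 tested higher and 2 lower, with a median log2 ratio of 0.57, and again a single cell carried much of it. Actc1 stood at 223 against 33.8 CPM, 6.61-fold (5.34 to 8.18), with 134 of 174 GFP+ UMIs in the doublet call, and was 1.65-fold higher without the called doublets. The skeletal actin Acta1 had 236 of its 390 GFP+ UMIs in 1 cell. Tnnc2, fast troponin C, was lower, at 15.4 against 61.0 CPM, a ratio of 0.253 beside 0.273 in other cells.

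Among the 12 genes with the highest ratios, 10 were genes of immune cells whose GFP+ UMIs came from the single antigen-presenting cell, which held 480 of 480 UMIs of Cd74 and 279 of 280 of H2-Aa. The remaining ones were the reporter and Nol4l, at 77.0 against 5.73 CPM, with 34 of 60 UMIs in 1 cell. Among the lowest, Fabp4 had 0 GFP+ UMIs against 619, of which 617 were in the endothelial-marker cell. Il33, an alarmin cytokine, had 0 UMIs in 25 GFP+ cells against 245 UMIs in 46 of 202 GFP- cells, a ratio of at most 0.0851 against a floor of 3 counts, beside a ratio of 0.576 in other cells. Plpp2, a lipid phosphatase, had 5 UMIs (6.42 CPM) against 36.6 CPM, beside a ratio of 0.832 in other cells. Without cells of other types 149 genes were higher and 144 lower, with 132 and 125 shared.

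Metabolic and interferon lists held few called genes. Nuclear genes of oxidative phosphorylation summed to 1.14 and 1.22 times the level in other cells, with 0 of 20 called. Glycolysis genes summed to 1.04 and 1.32 times it, with 1 of 15 called, the hexokinase Hk2, lower at 11.6 and 9.05 CPM against 52.4 and 21.1. Between the fractions' G2/M cells, glycolysis genes had a summed ratio of 0.767 (0.742 to 0.792), beside 0.974 in other cells. Ldha, lactate dehydrogenase A, stood at 393 CPM in GFP+ and 602 CPM in GFP- G2/M cells, against 400 and 374 in other cells. Interferon-stimulated genes gave 0 of 9 called against other cells.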

How the data were processed

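Droplet 3′ RNA libraries of the GFP+ and GFP- fractions, 1 library each, were read as the deposited matrices of raw UMI counts over all barcodes (718416 and 1361552 barcodes with 13928952 and 49709323 UMIs, 32286 features). Cell Ranger 4 wrote them, per the file headers, and the submitters' processing notes name Cell Ranger, Seurat and mm10. The deposited feature and barcode tables hold names only, and no deposited cell annotation was used here, so classes were rebuilt from marker levels and may differ from the study's.

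Members and gene lists were chosen with earlier results of these data known. Counts were summed per class and library and scaled to CPM. Ratios have exact conditional 95% intervals and shares exact Clopper-Pearson intervals, which cover counting error only, and a count of 0 was given a floor of 3 counts. With 1 library per fraction no test was run and no p-value is given. Between classes a gene was called at a 2-fold difference the same way in both libraries, with at least 20 CPM in either class in both. Between fractions it was called at 2-fold, with 20 CPM in 1 library, 20 UMIs in all, and at least 0.5 times its CPM in empty droplets (barcodes of 1 to 100 UMIs). Named genes were the 7 of the rule, up to 4 per list, the 12 highest and 12 lowest in each contrast, 8 at each end against S phase cells, and a fixed set of regulators. Other genes of the 25 lists were named after their values were seen. Doublets were sought with Scrublet in scanpy 1.11.5 (expected rate 0.08), which marked 0.497% and 0.112% of cells, so no cell was removed. Intervals came from scipy 1.17.1 and sums from numpy 2.4.6 and pandas 2.3.3 under python 3.11.15, and edgeR 4.0.16 in R 4.3.3 gave TMM scaling only. The scripts were tested on simulated data. Promoter windows and gene positions came from RefSeq (GRCm38.p6) and GENCODE on mm10. Of 16 alternatives tried, 14 were planned and 2 were added after seeing the data. The marker values of 1 of the 5 cells of other types are not reported here.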

Additional observations from a re-analysis of the deposited data

Results flagged for a closer look

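For 3 named genes, the summed GFP+ to GFP- ratios in G2/M cells and in other cells, with their intervals, lay on opposite sides of 1. Actc1, the cardiac actin, had a GFP+ to GFP- ratio of 6.61 (5.34 to 8.18) in G2/M cells and 0.762 (0.734 to 0.790) in other cells, with 134 of its 174 GFP+ G2/M UMIs in 1 cell. Nusap1, which bundles spindle microtubules, had ratios of 1.57 (1.35 to 1.82) and 0.714 (0.515 to 0.972). Top2a, the topoisomerase of chromosome condensation, had ratios of 1.14 (1.04 to 1.24) and 0.787 (0.710 to 0.871). Other cells span all scores under 8, and cells with scores above 0 and up to 4 were 15.12% of GFP+ and 20.92% of GFP- cells. In that band Nusap1 stood at 8.001 and 7.662 CPM and Top2a at 83.06 and 85.92. At 4 to 8 Nusap1 stood at 37.65 and 55.26 CPM and Top2a at 294.9 and 352.7. In both bands the counting intervals of the libraries overlapped. The part of this mix of scores in the ratios of other cells was not tested. The difference between the classes was itself not tested, since each fraction is 1 library.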

How the results depend on the processing

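The ratio of G2/M shares, GFP+ to GFP-, lay between 0.461 and 0.67 under every alternative that gives it. Against a GFP- share of 8.04%, a score limit of 6 gave 10.1%, at most 5% mitochondrial UMIs 10.3%, scoring on thinned cells 9.21%, no cells above the 95th percentile of UMIs 6.47%, and no cells past the S phase limit 6.22%. A limit of 12 gave 2.46% of GFP+ and 5.33% of GFP- cells. The 268 genes higher and 81 lower in G2/M became 159 and 35 at a floor of 50 CPM. The lower count became 145 at a floor of 10 CPM and 122 with the mean over cells. The 156 genes higher and 151 lower in GFP+ G2/M cells depended more on the processing. These counts were 342 and 452 at a score limit of 12, 287 and 325 without cells above the 95th percentile, 516 and 294 with the mean over cells, 275 and 373 at a floor of 10 CPM, 80 and 26 at 50 CPM, and 75 and 321 without each gene's richest cell. TMM scaling gave 169 and 129. The lower count was also 64 at a score limit of 6, 94 on thinned scores and 251 without cells past the S phase limit. Directions reversed in 6 cases among single genes. At a score limit of 12 the GFP+ to GFP- log2 ratios were -2.21 for Myog, -0.14 for Myod1 and -0.75 for Ccne2. Without cells past the S phase limit Ccne2 was at -0.39. With the mean over cells Tnnc2 was at 0.52 and Klhl41, GFP+ G2/M to other cells, at 0.72. The causes were not tested. No paired analysis was possible because each fraction has 1 library. With 25 GFP+ cells, single cells decide many fraction ratios.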
